A study of Arabidopsis thaliana with 20 samples.

Results

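The nuclear genes of Arabidopsis thaliana that encode proteins of the cytosolic 40S and 60S ribosomal subunits were followed over leaf age, leaf genotype and 10 seedling genotypes. Of 51 listed loci, 27 had a probe set that names that gene alone and were measured, among 13356 genes with a probe set of their own; 19 of the 27 encode proteins of the 60S and 8 of the 40S subunit. They stand for 19 of the 32 protein families on the list. Of those families, 7 had at least 2 measured paralogs, 15 genes in all. Another 5 loci occurred only in a probe set that names several genes (the RPL6 genes AT1G74060 and AT1G74050, the RPL9 genes AT1G33140 and AT1G33120, and the RPS3 gene AT2G31610) and gave no value of their own. The remaining 19 had no named probe set and are not analysed here, among them AT1G43170 (RPL3), AT3G25520 and AT5G39740 (RPL5), AT2G18020 and AT4G36130 (RPL8), AT1G14320 and AT1G26910 (RPL10), AT2G42740 (RPL11), AT3G49010 (RPL13), AT3G05590 (RPL18), AT1G02780 (RPL19), AT1G04480 (RPL23), AT2G39460 (RPL23a), AT2G36620 and AT3G53020 (RPL24), AT4G31700 and AT5G10360 (RPS6), and AT1G22780 (RPS18).

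The cytosolic ribosome is assembled in the nucleolus from ribosomal RNA and a set of ribosomal proteins, each normally present in a single copy per subunit. In plants each of these proteins is encoded by a small family of paralogs, so that the transcript pool for a single protein is the sum of several genes. Growing, dividing tissue makes new ribosomes at a high rate, and ribosomal protein transcripts are known to be abundant in meristems and young organs.

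Wild type was the Columbia accession. The leaves were first leaf pairs labelled 5 d or 15 d, of wild type or of a triple mutant in MYB3R1, MYB3R3 and MYB3R5 (myb3r1/3/5), and each genotype had 2 arrays at the younger and 3 at the older age. Whole seedlings of 9 d were taken, with 1 array each, from wild type, the single mutants myb3r1, myb3r3, myb3r4 and myb3r5, the doubles myb3r1/4 and myb3r3/5, the triples myb3r1/3/5 and myb3r3/4/5, and the quadruple myb3r1/3/4/5. Growth was at 22 °C under continuous light, on diluted MS agar to which 2% sucrose was added. MYB3R proteins are MYB transcription factors known for binding genes of the G2/M phase of the cell cycle. No MYB3R gene had a named probe set, so the genotypes are as labelled, and the alleles are not described further in the sources used here. Neither the number of plants per sample nor the origin of the replicates is given, and p-values therefore describe the spread among these samples alone. Precision is limited throughout by the number of arrays.

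Signals are MAS5 intensities on a linear scale, with every array brought to the same trimmed mean, so a change is a change relative to the rest of the array. Signals of different probe sets are not comparable as levels, and a ratio of paralogs is used below only for its change with age. The 27 genes were far above the floor of 33.1 on all 20 arrays. Together they made up 2.25 to 2.57% of the summed signal of a 5 d leaf array, 0.453 to 0.848% of a 15 d leaf array and 1.26 to 1.37% of a seedling array. Their median deviation from each gene's mean over the 20 arrays (log2) was 1.04 and 1.22 in the wild-type and 1.07 and 0.97 in the triple mutant 5 d arrays. At 15 d it was -1.09, -0.72 and -0.93 in wild type and -1.44, -0.57 and -0.74 in the mutant. Replicate 1 was thus the lowest 15 d array in both genotypes, and mutant replicate 1 was the lowest of all.

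Marker genes moved between the same arrays. The summed signal of the 3 measured photosynthesis markers (of 18 listed) was 62316, 34978 and 23547 in the 15 d wild-type arrays, 47704, 6145 and 8302 in the 15 d mutant arrays and 22945 to 39460 at 5 d. Replicate 1 was therefore the array with most photosynthesis signal in both 15 d groups. The 4 measured markers of dividing cells (of 9 listed) summed to 4337 to 5038 in wild type and 5180 to 6113 in the mutant at 5 d, and to 77.2 to 195 in wild type and 1682 to 1791 in the mutant at 15 d. Between 1 and 4 of those 4 markers were at the floor in each 15 d wild-type array, and none was in the mutant. The 4 were AUR1, AUR2, KINESIN-12B and BUBR1, genes of the G2/M phase, a class that MYB3R proteins are known for binding. Between genotypes they are therefore no independent measure of dividing cells. The 2 measured senescence markers (of 3) summed to 33.2 to 137 at 5 d and 654 to 2865 at 15 d, and both measured root markers (of 3) were at the floor in every 15 d leaf array. Their part in the results below was not tested. In whole-tissue RNA, fewer cells of a type and less RNA per cell cannot be told apart.

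**Figure D1:**
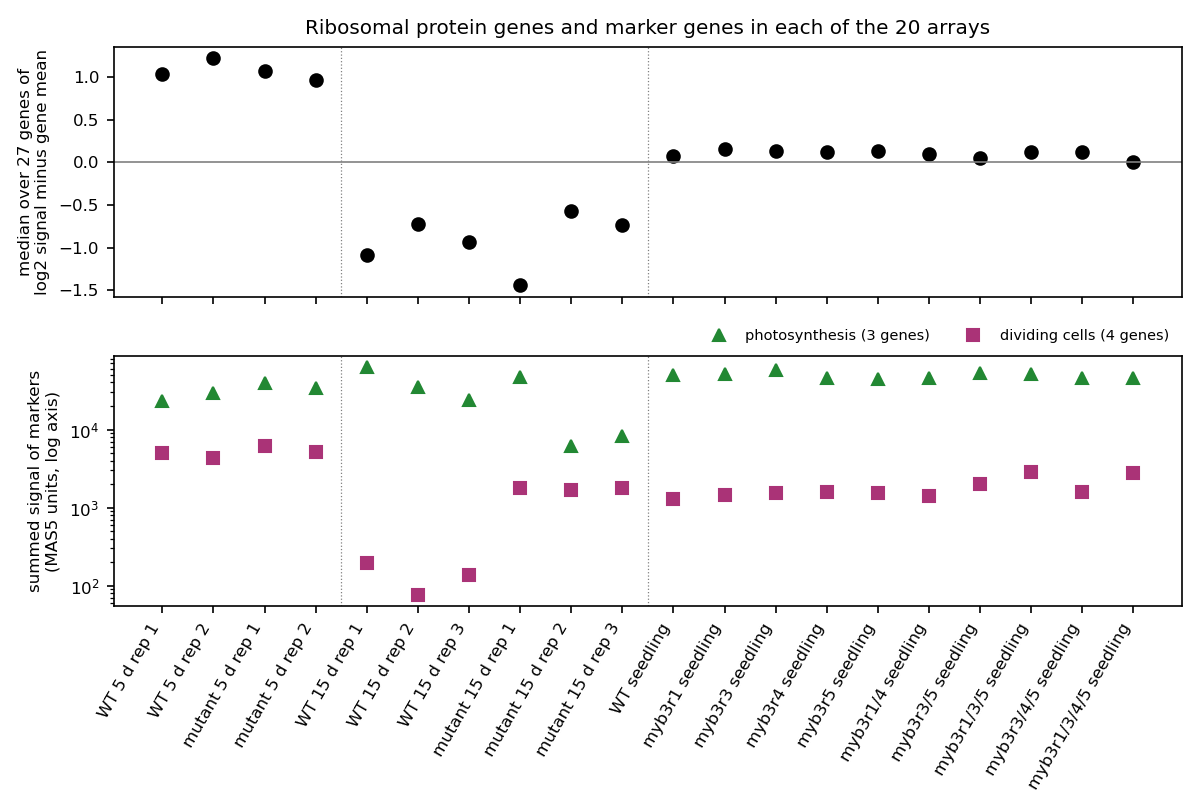
Upper panel, the median over 27 ribosomal protein genes of log2 signal minus the gene's mean over 20 arrays, 1 point per array; lower panel, summed signal of 3 photosynthesis and 4 dividing-cell markers on a log axis. All 4 arrays of 5 d leaves lie between 0.97 and 1.22, the 6 arrays of 15 d leaves between -1.44 and -0.57, and the seedling arrays in between.

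Ribosomal protein transcripts were lower in the older leaves. In wild type, 26 of the 27 genes fell from 5 d to 15 d and none rose (limma, adjusted p under 0.05 over 16558 probe sets), against 27.3% of all probe sets called lower and 24.9% called higher. The median change was -2.02 on the log2 scale, a 4.07-fold fall, while the median of all probe sets was -0.01. In the triple mutant the same count held, 26 lower and none higher, against 27.1% and 25.9% of all probe sets, with a median of -1.98 (all probe sets, -0.05). In each genotype the 5 d and 15 d arrays of those 26 genes did not overlap, which was so, with 15 d lower, for 36.3% of all probe sets in wild type and 36.3% in the mutant. None of these shares of all probe sets was matched for signal. The median signal of the 27 genes lay at percentile 94.0 to 99.6 of the leaf arrays. The 19 genes of the 60S subunit had a median change of -2.05 in wild-type leaves and -2.08 in mutant leaves, and the 8 genes of the 40S subunit one of -1.83 and -1.84. Both subunits thus moved the same way, with ranges that overlapped.

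**Figure D2:**
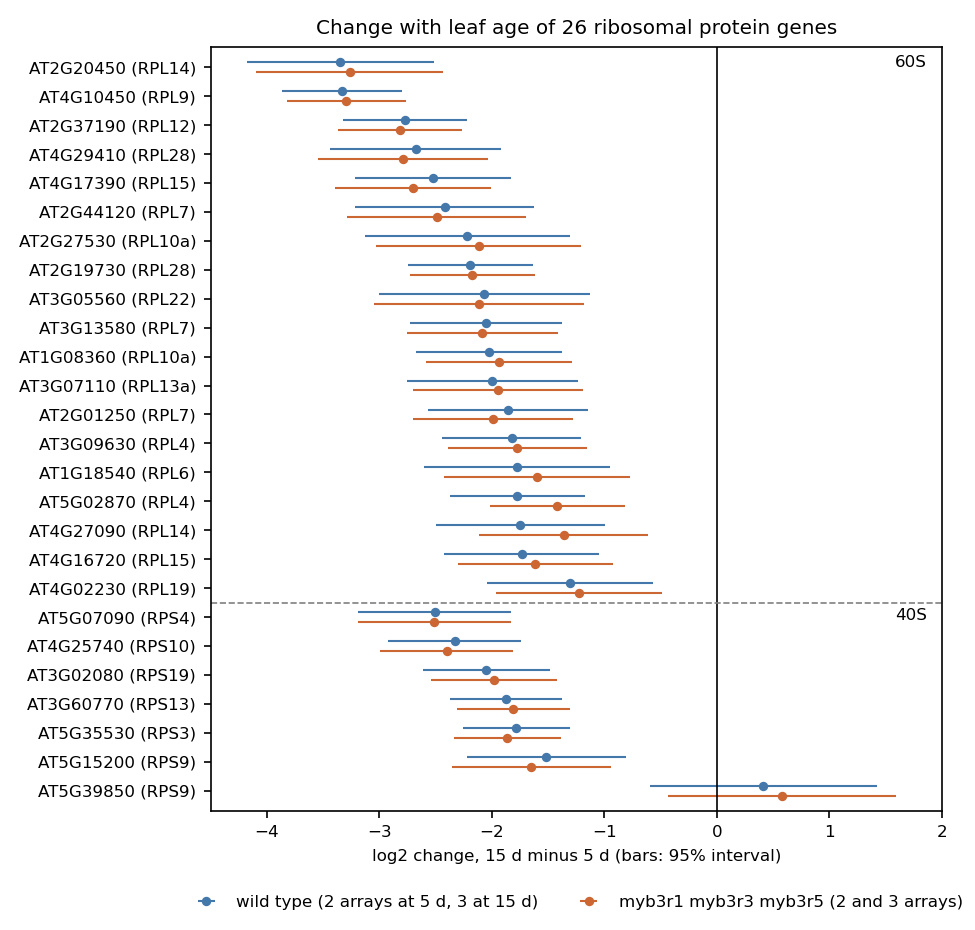
Change from 5 d to 15 d (log2, 15 d minus 5 d) of 26 measured genes in wild type and in the triple mutant, with 95% intervals, genes of the 60S subunit above the dashed line and of the 40S subunit below it. All intervals lie below 0 in both genotypes except those of AT5G39850, which lie across 0.

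The 5 largest falls were those of the same 60S genes in both genotypes. AT2G20450, 1 of 2 measured genes for RPL14, a protein of the 60S surface, had signals of 7385 and 7439.9 in the 5 d and 597, 912 and 711 in the 15 d wild-type arrays. In the mutant they were 8706 and 5655 at 5 d and 448, 1068 and 812 at 15 d. The fall was 10.2-fold in wild type (log2 change -3.35, SE 0.37, limma adjusted p = 1.0e-04) and 9.62-fold in the mutant (-3.27, SE 0.37, adjusted p = 1.5e-04). Every 5 d array was thus several-fold above every 15 d array.

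AT4G10450 encodes RPL9, which lies near the site where translation factors dock on the 60S subunit. Its signals were 7842 and 7805 in 5 d and 798, 860.4 and 679 in 15 d wild-type leaves, and 7618 and 6138 and then 549, 883 and 700.2 in the mutant. This gene had the smallest adjusted p of the 27 in both genotypes, with log2 changes of -3.33 (SE 0.23, adjusted p = 1.2e-05) and -3.29 (SE 0.23, adjusted p = 2.3e-05). Its replicates at 15 d differed far less from each other than from the 5 d arrays.

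AT2G37190 encodes RPL12, part of the base of the stalk that recruits elongation factors. It went from 16405 and 19094 to 2858, 2816 and 2165 in wild type and from 17578 and 17193 to 1930.3, 3036 and 2563 in the mutant. The log2 changes were -2.77 (adjusted p = 3.1e-05) and -2.82 (adjusted p = 4.8e-05). The groups did not overlap in either genotype.

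AT4G29410, an RPL28 gene, had signals of 13619 and 14413 at 5 d and 1813, 2504 and 2312 at 15 d in wild type, and of 14144 and 11630.0 and 1198, 2815 and 1893 in the mutant (log2 changes -2.68 and -2.79, limma adjusted p = 2.0e-04 and 2.0e-04). AT4G17390, an RPL15 gene, had 15497 and 20140.1 and 2629, 3976 and 2779 in wild type, and 18204 and 17018 and 2022, 3774 and 2594 in the mutant (-2.52 and -2.70, adjusted p = 1.6e-04 and 1.5e-04). For both genes the lowest of all 10 leaf arrays was mutant 15 d replicate 1.

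Among the other 60S genes the wild-type change lay between -2.42 and -1.31. The 3 genes of RPL7 changed by -1.85 (AT2G01250), -2.42 (AT2G44120) and -2.05 (AT3G13580). The genes of RPL10a, a protein of the mobile stalk at the side of the subunit where spent tRNA leaves, changed by -2.02 (AT1G08360) and -2.22 (AT2G27530). AT2G27530 is PIGGYBACK1 (PGY1), a gene known from Arabidopsis mutants with altered leaf patterning. Those of RPL4, which lines the tunnel through which the new peptide leaves, changed by -1.82 (AT3G09630) and -1.77 (AT5G02870). The single measured genes of RPL22 (AT3G05560), RPL13a (AT3G07110) and RPL6 (AT1G18540) were 4.19, 3.99 and 3.43-fold lower at 15 d. In the mutant these 10 genes changed by -2.49 to -1.42, all called lower.

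In the 40S subunit the largest falls in wild type were those of the RPS4 gene AT5G07090 (-2.51), the RPS10 gene AT4G25740 (-2.33) and the RPS19 gene AT3G02080 (-2.05). The RPS13 gene AT3G60770 changed by -1.87 and AT5G35530, a gene of RPS3 at the channel through which mRNA enters, by -1.78. In the mutant these 5 genes changed by -2.51, -2.40, -1.98, -1.81 and -1.86, in the same order.

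Of the 60S genes, the RPL19 gene AT4G02230 had the smallest fall in both genotypes. Its signals were 8705 and 8982 in 5 d and 2775, 4096 and 4019.9 in 15 d wild-type leaves, and 8658 and 7644 and then 2232, 4602 and 4089.9 in the mutant (log2 changes -1.31 and -1.23, limma adjusted p = 0.0083 and 0.012). It was lower in every 15 d array than in every 5 d array, but the call rested on having 2 arrays at 5 d. Without wild-type 5 d replicate 1 or replicate 2 it lost the wild-type call (adjusted p = 0.053 and 0.054), and 24 genes were called. Without mutant 5 d replicate 1 it lost the mutant call, as did AT1G18540 and AT4G27090 (adjusted p = 0.051 to 0.089), and 22 were called.

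AT5G39850, which encodes RPS9, a protein at the mRNA entry of the 40S subunit, was the exception among the 27. Its signals were 779 and 537 in the 5 d and 698, 1435 and 637 in the 15 d wild-type arrays. In the mutant they were 815 and 484 and then 723, 1459 and 783. The groups overlapped in both genotypes, and the array numbered 2 at 15 d was the highest of each. The change was 0.41 in wild type (95% interval -0.60 to 1.42, limma adjusted p = 0.47) and 0.58 in the mutant (-0.43 to 1.59, adjusted p = 0.30), so no change passed the test in either direction.

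Because the fall differed from gene to gene, paralogs of each family were compared by the log2 ratio of both signals within an array, which cancels what moves an array's members together. In 9 pairs from 7 families the mean ratio of the 4 arrays at 5 d was tested against that of the 6 arrays at 15 d (both genotypes together) by an exact two-sided permutation test over all 210 regroupings, whose smallest p is 0.00476, with adjustment over the 9 pairs. For 6 pairs the test reached that smallest value (adjusted p = 0.00714), and in those 6 the ratios at 5 d and 15 d did not overlap. No share was computed for pairs of other probe sets, so this count is not read as particular to these families. The called pairs of RPL7 share AT2G44120, so the 6 are not separate results.

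The RPS9 pair differed most. AT5G15200 had signals of 20289.5 and 23484 in 5 d and 6873, 9178 and 7034 in 15 d wild-type leaves, and of 22796 and 20769 and 4611, 9184 and 7907 in the mutant, with log2 changes of -1.52 and -1.65 (limma adjusted p = 0.0031 and 0.0021). The other gene, AT5G39850, showed no such fall in the values given above. Their log2 ratio was 5.10 ± 0.40 (SD, n = 4) at 5 d and 3.02 ± 0.39 (SD, n = 6) at 15 d, a 4.22-fold shift toward AT5G39850 (difference -2.08, exact permutation, adjusted p = 0.00714). It was -1.93 in wild type and -2.23 in the mutant taken alone.

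In the RPL14 pair both genes fell, unequally. AT4G27090 had signals of 16459 and 18473 at 5 d and 3738, 6779 and 5507 at 15 d in wild type, and of 17509 and 16108 and 4504, 8288 and 7479 in the mutant (log2 changes -1.75 and -1.36, limma adjusted p = 0.002 and 0.0077). Its paralog AT2G20450 fell about 10-fold in both genotypes, as given above. The log2 ratio of AT2G20450 to AT4G27090 was -1.25 ± 0.22 (SD, n = 4) at 5 d and -3.00 ± 0.24 (SD, n = 6) at 15 d, a 3.37-fold shift toward AT4G27090 (difference -1.75, exact permutation, adjusted p = 0.00714). The difference was -1.60 in wild type and -1.90 in the mutant.

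In the RPL15 pair, AT4G16720 had signals of 15723 and 18198 at 5 d and 3924, 6182 and 5412 at 15 d in wild type, and of 16349 and 15797 and 3665, 6701 and 5900.3 in the mutant. It changed by -1.73 and -1.61, against -2.52 and -2.70 for AT4G17390. The ratio of AT4G16720 to AT4G17390 rose 1.92-fold with age (difference 0.94, exact permutation, adjusted p = 0.00714), by 0.79 in wild type and 1.09 in the mutant.

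The RPL28 gene AT2G19730 had signals of 22508 and 27592 at 5 d and 4977, 5845 and 5585 at 15 d in wild type, and of 21835 and 21052 and 3726, 6012 and 4788 in the mutant. Its ratio to AT4G29410 rose 1.47-fold (difference 0.55, exact permutation, adjusted p = 0.00714). Both genes fell, AT4G29410 by more.

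In the RPL7 family, AT2G01250 had 17909.5 and 20538 at 5 d and 5363, 5764 and 4827 at 15 d in wild type, and 18775 and 18583 and 2963, 6196 and 5692 in the mutant. AT2G44120 had 15639 and 14926 and 2949, 3433 and 2298 in wild type, and 16999 and 11722 and 1721, 3904 and 2350.2 in the mutant. The ratio of AT2G01250 to AT2G44120 rose 1.45-fold (difference 0.54, exact permutation, adjusted p = 0.00714), and that of AT2G44120 to AT3G13580 changed by -0.39 (same adjusted p, but 0.086 after quantile normalization). AT2G44120 thus fell more than both other RPL7 genes.

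The 3 other pairs were not called. The difference was -0.20 for the RPL4 genes AT3G09630 and AT5G02870 (exact permutation, adjusted p = 0.21), 0.19 for the RPL10a genes AT1G08360 and AT2G27530 (0.23) and 0.15 for the RPL7 genes AT2G01250 and AT3G13580 (0.13, and 0.046 without mutant 5 d replicate 2). In these pairs the ratios at 5 d and 15 d overlapped. Same-numbered arrays were treated as independent in this test.

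**Figure D3:**
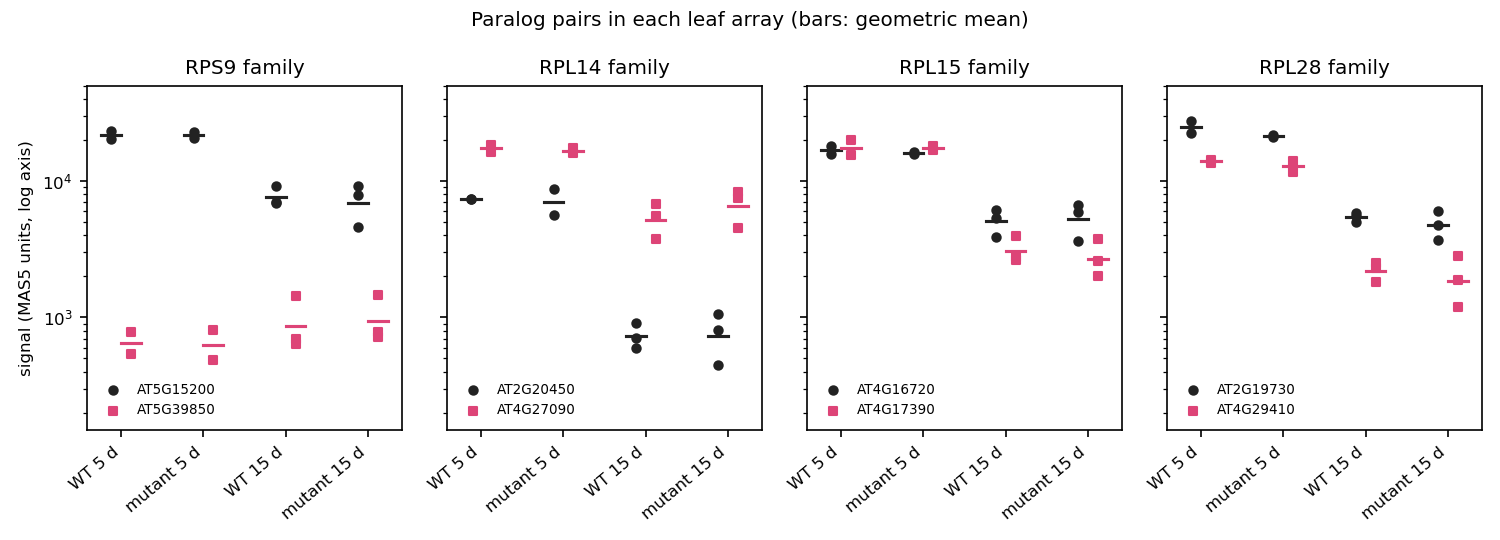
Signal of both paralogs of 4 families in each leaf array (MAS5 units, log axis; points are arrays, bars are geometric means of 2 or 3 arrays). Within a family the drop from 5 d to 15 d is unequal, and AT5G39850 shows none; the height of a paralog against the other depends on the probe sets and is not comparable.

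The triple mutant was compared with wild type at each age to ask whether loss of the MYB3R genes moved ribosomal protein transcripts. At 5 d none of the 27 genes was called by limma (none at an unadjusted p under 0.05), against 0.127% of all probe sets. The median change was -0.07, from -0.22 to 0.07, with 24 genes below 0, and 24 of the 27 95% intervals lay within a 2-fold change either way. The median of all probe sets was -0.004, with 8847 of 16558 below 0. With array medians made equal, the median was -0.16 for the 27 genes, none above 0, and -0.09 for all probe sets. The count of signs thus moved with the scaling. The arrays of both genotypes did not overlap for 5 of the 27 genes, against 39.4% of all probe sets. That share was not matched for signal, so the count is not read as particular to these genes. By size the lowest were AT2G19730 (-0.22, 95% interval -0.83 to 0.39) and AT4G10450 (-0.19), and the highest was AT3G05560 (0.07). The AT3G05560 signals were 17052 and 19106 in the wild-type arrays and 20237 and 17683 in the mutant ones, with the genotypes interleaved. Its sign turned when array medians were made equal or when the 5 d array numbered 1 of either genotype was left out.

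At 15 d none of the 27 genes was called either (none at an unadjusted p under 0.05), against 0.749% of all probe sets. The median was -0.06, from -0.24 to 0.33, with 10 genes above 0 and 17 below, and 25 of the 95% intervals lay within a 2-fold change either way. The median of all probe sets was 0. No gene had non-overlapping arrays, against 10.1% of all probe sets, again not matched for signal. All 4 measured markers of dividing cells were called higher in the mutant at this age. Since each was at the floor in at least 1 of the wild-type arrays, no fold is given. They are genes of the G2/M phase, and whether the mutant leaves held more dividing cells was not tested.

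The 95% intervals of the values at the ends of that range included 0. AT4G27090 (RPL14), whose signals are given above, had a change of 0.33 (95% interval -0.34 to 1.01, limma adjusted p = 0.83). AT5G02870 (RPL4) had 5471, 6053 and 4957 in wild type and 4713, 7350.4 and 8259 in the mutant, a change of 0.27 (-0.27 to 0.80, adjusted p = 0.83). Mutant replicate 1 was below all wild-type arrays of AT5G02870, and mutant replicates 2 and 3 were above them. Over single left-out arrays the change ran from 0.097 to 0.60 for AT4G27090 and from 0.10 to 0.51 for AT5G02870, in both cases highest without mutant 15 d replicate 1. AT4G29410 (-0.24) and AT2G19730 (-0.20), both RPL28 genes, were lowest.

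The direction of the 15 d median depended on single arrays. Without mutant 15 d replicate 1 it was 0.17, with 25 of 27 genes above 0, still none called and a lowest adjusted p of 0.096. Without wild-type 15 d replicate 2 it was 0.00047, with 14 of 27 above 0, and without mutant replicate 2 it was -0.27, with 3 of 27 above 0. The 5 d median likewise was 0.02 without wild-type 5 d replicate 2 (14 of 27 above 0) and 0.0060 without mutant 5 d replicate 2 (15). Taking same-numbered arrays as pairs, the median of mutant minus wild type was -0.42 in pair 1 (3 of 27 above 0), 0.14 in pair 2 (25) and 0.12 in pair 3 (23). At 5 d it was 0.09 in pair 1 (22 of 27 above 0) and -0.23 in pair 2 (0). The pairs thus went in different directions at both ages.

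**Figure D4:**
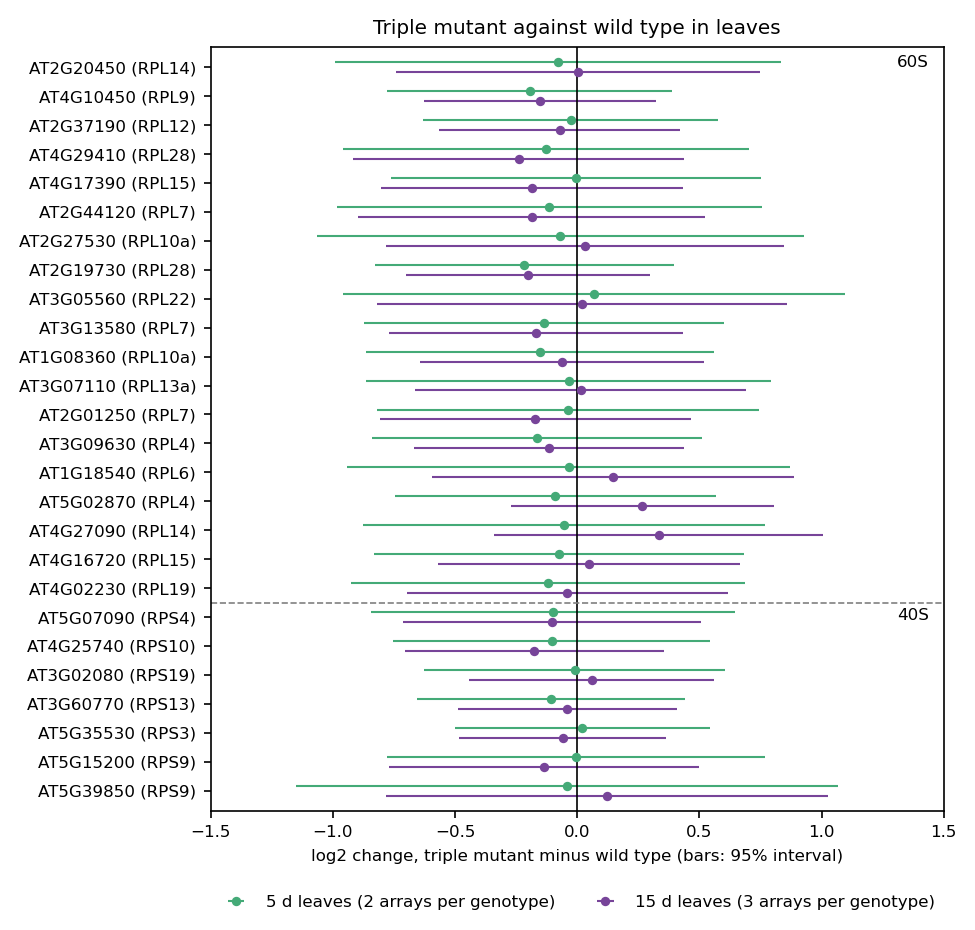
Triple mutant minus wild type (log2) for 26 measured genes in 5 d and 15 d leaves, with 95% intervals. All points lie between -0.24 and 0.33 and every interval includes 0.

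The fall with age was compared between genotypes directly. None of the 27 differences was called (none at an unadjusted p under 0.05), against 0.344% of all probe sets, and the median difference was 0.04, from -0.18 (AT4G17390) to 0.39 (AT4G27090). AT5G02870 had 0.36. Over single left-out arrays the median ran from -0.19 without mutant 15 d replicate 2 (3 of 27 above 0) to 0.29 without mutant 15 d replicate 1 (27 of 27). It was also below 0 without wild-type 5 d replicate 2 (-0.09), wild-type 15 d replicate 1 (-0.05), mutant 5 d replicate 2 (-0.09) or mutant 15 d replicate 3 (-0.04), so its direction was not settled. Intervals were wide here: for AT4G27090 it ran from -0.68 to 1.45, and 10 of 27 lay within a 2-fold difference either way. Across the 27 genes the falls in wild type and mutant had a Pearson r of 0.984 and a Spearman rho of 0.979, given as a description, since genes on the same arrays are not independent.

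In 9 d seedlings ribosomal protein transcripts lay between the levels of young and older leaves. The median of the 10 seedling arrays was below the wild-type 5 d mean and above the wild-type 15 d mean for 25 of the 27 genes, without a test, since tissue and age differ together. The exceptions were AT4G02230, with a seedling median of 3597 that was 0.991 times its 15 d mean, and AT5G39850, with 604, below both leaf means. For AT2G20450 the seedling median of 2176 was 0.294 times the 5 d and 2.94 times the 15 d mean. The share of all probe sets lying between both leaf means was not computed. The count of 25 is thus not read as particular to these genes.

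The medians of these genes differed little between the seedling genotypes. The lowest and the highest log2 ratio of any gene over the wild-type seedling, -0.66 and 0.46, were both in myb3r1/3/5. The median log2 ratio over the wild-type seedling was 0.08 in myb3r1, 0.06 in myb3r3, 0.08 in myb3r4, 0.06 in myb3r5, 0.04 in myb3r1/4, 0.01 in myb3r3/5, 0.07 in myb3r1/3/5, 0.03 in myb3r3/4/5 and -0.01 in the quadruple mutant. No gene moved by 1 or more on the log2 scale in any of them, and 1 gene in 1 genotype moved by over 0.5, while 9.85 to 18.6% of all 19626 probe sets did per genotype. That gene was AT5G39850 (RPS9), with a signal of 383 in the myb3r1/3/5 seedling against 606 in wild type (log2 ratio -0.66). Its signals in the other 8 mutants were 551 to 770, on both sides of wild type. With 1 array per genotype these ratios have no replicate check. In the seedling arrays the median signal of these genes lay at percentile 98.7 to 98.9 of the array. The share of all probe sets past 0.5 was not matched for signal. The low count among these genes is therefore not read as particular to them.

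The highest median ratios over the 9 mutants were those of AT2G37190 (RPL12, 0.27), AT4G25740 (RPS10, 0.23) and AT4G27090 (RPL14, 0.22). The 10 seedling signals of AT2G37190 ran from 7414 over a median of 8871 to 9667, those of AT4G25740 from 2401 over 2808 to 3187, and those of AT4G27090 from 9152 over 10534 to 11755. Wild type was the lowest array for each of the 3 genes. All 9 ratios of a gene share that wild-type array, so their common sign is no count of independent samples.

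The lowest median ratios were those of AT5G15200 (RPS9, -0.19), AT2G01250 (RPL7, -0.07) and AT1G08360 (RPL10a, -0.06). AT5G15200 ran from 11279.8 in the quadruple mutant over a median of 12795 to 14524 in wild type, its highest array. AT2G01250 ran from 9223 to 11502 and AT1G08360 from 6473 to 7738, with wild type inside the range.

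**Figure D5:**
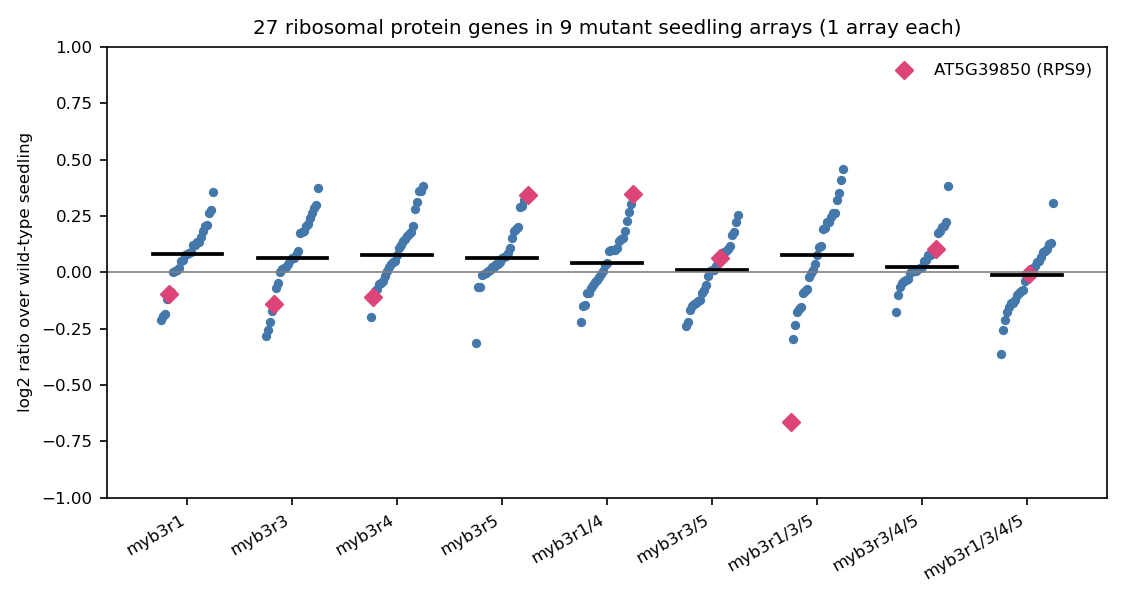
Log2 ratio over the wild-type seedling of 27 ribosomal protein genes in 9 mutant genotypes (1 array each; points are genes, lines are medians). Medians lie between -0.01 and 0.08, and AT5G39850 in myb3r1/3/5 is the 1 point past 0.5 in size.

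A fit with 1 additive term per mutant allele over the 10 seedling arrays called none of the 27 genes in any term (limma). At an unadjusted p under 0.05 there was 1 gene for myb3r1, 1 for myb3r3, 0 for myb3r4 and 1 for myb3r5, where 1948, 2049, 1106 and 1510 of all 19626 probe sets were under it. After adjustment 0%, 0.0051%, 0.0153% and 0% of all probe sets were called. The largest term in size was that of the RPS4 gene AT5G07090 for myb3r3 (-0.35, SE 0.07, limma adjusted p = 0.26). The same gene was the 1 counted for myb3r5, with the opposite sign (0.20, SE 0.07, limma adjusted p = 0.62). Its log2 ratio over wild type in the myb3r3/5 seedling was 0.008. The median over the 27 genes was -0.02, -0.01, -0.01 and 0.00 for the 4 alleles in that order.

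Genes that act around the ribosome were taken from lists of known functions. Of 32 ribosome biogenesis genes 8 had a named probe set, and all 8 fell with leaf age in both genotypes (of all probe sets, 27.3% were called lower in wild type and 27.1% in the mutant), the median log2 change being -2.85 for wild-type leaves and -2.28 for mutant leaves. AT5G14520 (PES, PESCADILLO, a nucleolar protein of 60S maturation) had signals of 6949 and 6727 at 5 d and 941, 915 and 803 at 15 d in wild type, and of 5869 and 5122 and 918, 1133 and 962 in the mutant (log2 changes -2.95 and -2.45, limma adjusted p = 7.6e-06 and 2.5e-05). The largest falls were those of AT1G52930 in wild type (-3.58) and AT3G03920 in the mutant (-3.14; -3.29 in wild type), and AT5G08180 changed by -3.21 and -2.86. None of the 8 was called between genotypes at 5 d or 15 d.

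Of 27 nuclear-encoded proteins of the plastid ribosome, a separate machine of the chloroplast, 4 were measured, of which 3 fell with age in wild type (median of the 4, -1.86) and 4 in the mutant (-3.01), against the same 27.3% and 27.1% of all probe sets. AT2G43030 had 13018 and 14443 at 5 d and 7594, 2939 and 2891 at 15 d in wild type, and 15010.5 and 12815 and 4630.1, 1018 and 1156 in the mutant. Replicate 1 was its highest 15 d array in both genotypes, whereas replicate 1 was the lowest 15 d array for the median cytosolic gene. AT4G01310 had the largest fall in both genotypes (-2.27 and -3.36, limma adjusted p = 0.022 and 0.0033).

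Of 14 cytosolic translation factors 2 were measured. AT2G40290 fell in both genotypes (-1.53 and -1.25, limma adjusted p = 2.6e-04 and 9.2e-04), whereas EIF4A-2, an RNA helicase of translation initiation, had changes of -0.17 and -0.23 that were not called (adjusted p = 0.66 and 0.55). Of 6 genes of the TOR and S6 kinase pathway, which controls ribosomal protein synthesis, only RAPTOR1 was measured. RAPTOR1 was called higher at 15 d in wild type (0.71, limma adjusted p = 0.044) and not in the mutant (0.35, adjusted p = 0.29). The difference between the genotypes was not called. Of all probe sets, 27.3% were called lower and 24.9% higher with age in wild type, and 27.1% and 25.9% in the mutant. A call of 1 gene is therefore not read as a trait of its list.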

How the data were processed

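The data are 20 Affymetrix arrays of Arabidopsis RNA. The authors deposited a linear intensity per probe set, made with MAS5, per the submitters' processing notes; its version and a genome build are not given in the sources used here. All columns were mapped to samples, with 0 left unused. Each array was scaled to the same mean after trimming 2% at each end (499.77 to 499.83), values under a floor of 33.1 (the median over arrays of the 25th percentile) were raised to it, and the log2 was used. In leaves, 16558 probe sets exceeded the floor in all arrays of some group. They were fitted with limma 3.58.1 (R 4.3.3) over 10 arrays, 1 mean per group and a variance trend, with 6 residual degrees of freedom; p-values were adjusted by Benjamini-Hochberg. The seedling fit had 1 additive term per allele, 19626 probe sets and 5 residual degrees of freedom. All tests were two-sided and called at an adjusted p under 0.05. Scripts were tested on simulated data. Python 3.11.15 and matplotlib 3.10.9 drew the figures.

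Probe sets were matched by gene ID through the supplied table (TAIR10.1, names only); each measured gene had 1 own probe set. A probe set with the symbol of AT3G25520 belongs by ID to AT3G62690 and was not used. Protein families follow standard Arabidopsis nomenclature, not the files. The members, lists and tests were chosen with earlier results of these data known. Genes were named by a rule: the 5 largest called rises and falls per leaf comparison (2 of each by size where fewer were called), the 5 paralog pairs with the largest difference, the 3 highest and 3 lowest seedling medians, and of other lists the members of highest signal and largest called change; other members are given as values for completeness. Values of 1 measured gene are not reported here singly, though it is in all counts and medians. Same-numbered arrays were taken as pairs in the replicate block and in the pair medians, not in the main leaf fit or the paralog test. Their deviations from the group means correlated at 0.49 at 5 d and at 0.75, 0.63 and 0.61 at 15 d, all over the limit of 0.1. At 15 d, wild-type replicate 3 with mutant replicate 2 (0.46) and wild-type replicate 2 with mutant replicate 3 (0.16) also exceeded it. With 2 arrays per group at 5 d, differently numbered arrays correlate at -0.49 by construction. The pairing is therefore not established. Alternatives covered normalization, floor, filter, variance model, arrays fitted, replicate block and each left-out array.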

Additional observations from a re-analysis of the deposited data

How the results depend on the processing

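Of the alternatives to the counts, medians and paralog calls, 299 stayed on their side of the threshold, within 1.5 times of a count or within the pooled SD between replicate arrays (0.275) of a median, and 2 moved. The filter, the variance trend and arrays outside a comparison left the medians of these genes unchanged by construction. That SD also exceeds every main median change between genotypes. The 299 are therefore no measure of how stable those medians are. Medians near 0 nevertheless turned sign, under 14 alternatives for the leaf genotype comparisons and 6 for the seedlings. Over left-out arrays the median was -0.15 to 0.02 at 5 d, -0.27 to 0.17 at 15 d and -0.19 to 0.29 for the difference of the age changes. Seedling medians that turned lay between -0.012 and 0.078 under the main settings and between -0.014 and 0.015 after turning. The 2 that moved are the median fall in the mutant, -1.68 both without mutant 15 d replicate 1 and without both 15 d arrays numbered 1 (chosen after seeing the data); over all single left-out arrays it was -2.19 to -1.68, and in wild type -2.15 to -1.87. The cause was not tested. With the 2 arrays of a number at 5 d left out together (chosen after seeing the data), 22 and 20 genes were called lower in wild type and 18 and 22 in the mutant. Where a single array remained in a group, it is assumed to vary like the others.

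With the replicate block within each age (fixed for the genotype comparisons, random for age with a consensus correlation of 0.56), 26 genes stayed called lower in each genotype and none was called between genotypes (lowest adjusted p = 0.71 at 5 d, 0.21 at 15 d and 0.37 for the difference), so the pairing changed no call of a ribosomal protein gene. Over all probe sets it called 52, 779 and 181 in place of 21, 124 and 57. Other alternatives gave 1 to 905, 43 to 1552 and 0 to 1019. The split of the 5 d calls was 18 higher and 3 lower, but 20 and 11 after quantile normalization. Quantile normalization and equal array medians moved the median of all probe sets in wild-type ageing from -0.01 to -0.14 and -0.19, and that of the 27 genes to -1.81 and -2.21.

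Among the named genes, signs turned only in uncalled differences between genotypes. At 5 d AT3G05560 was -0.020 with equal array medians, -0.11 without both 5 d arrays numbered 1, and -0.030 to 0.17 over left-out arrays. At 15 d AT4G29410 was -0.54 to 0.076 over left-out arrays. For the difference of the age changes AT4G17390 was -0.42 to 0.031 over left-out arrays and 0.059 without both 5 d arrays numbered 1. Using every own probe set gave no further value, since each gene had 1. All 27 genes were above the floor on all 20 arrays.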
